A study of Mus musculus with 42 samples.

Results

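The amino acid transporter families of the mouse colon were followed here across goblet cells, Gli1+ stromal cells and cytokine-treated organoids. The genes were taken by symbol, as all rows named for the solute carrier families Slc1, Slc3, Slc6, Slc7, Slc36, Slc38 and Slc43, which gave 54 of the 19235 genes named in 12 tables of RNA sequencing counts. Slc7a6os, which carries a transporter's symbol only because it lies beside Slc7a6, was among them, so that 53 were transporters: 7 of Slc1, 2 of Slc3, 17 of Slc6, 11 of Slc7, 3 of Slc36, 10 of Slc38 and 3 of Slc43. A gene was tested in a table where its normalized count averaged at least 10 over the table's libraries. By that filter 53 of the 54 were tested in at least 1 table and 26 in all 12, and Slc6a20b was tested in none. The genes just inside and just outside the filter were, for example, Slc6a13 with a mean of 12.3 and Slc38a5 with 9.52 in the proximal Smad4 stromal table.

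The 42 libraries came from mice of both sexes aged 2 to 4 months. Goblet cells were sorted for a Muc2-mCherry reporter from Gli1-CreERT2;Muc2-mCherry controls (GWTM2), from mice that also carried Smad4 fl/fl (GS4M2) and from mice that also carried Alk3 fl/fl (GA3M2), Alk3 being the BMP receptor gene Bmpr1a. Stromal cells were sorted for Rosa26-tdTomato from Gli1-CreERT2 controls (GWTT) and from the corresponding Smad4 fl/fl (GS4T) and Alk3 fl/fl (GA3T) mice. All of these mice, controls included, received tamoxifen, and cells were taken 30 days later from proximal and from distal colon with 2 libraries per group. CreERT2 was driven by Gli1, a stromal gene, and whether goblet cells of the knockout mice carried any deletion was not tested. In CPM, which is reads scaled to the same total in each library, Bmpr1a stood at 69.7 to 86.2 in GA3M2 and 93.7 to 118 in GWTM2 goblet cells (proximal adjusted p = 0.281, distal adjusted p = 0.487 by limma). In GS4M2 goblet cells, from Smad4 fl/fl mice, it stood at 81.6 to 93.8 CPM (proximal adjusted p = 0.198, distal adjusted p = 0.474 by limma). Colonic organoids of WT genotype were grown without cytokine (Control), with IL1a and IL1b together (IL1) or with IL17A, each at 10 nM, for 12 or 72 h with 3 libraries per group. Called by Xist above 100 CPM, the sex of libraries differed between some compared groups. For example, 0 of 2 libraries were female in each GS4M2 and GA3M2 group against 1 of 2 in each GWTM2 group. In proximal GS4T 2 of 2 were female against 1 of 2 in GWTT. With IL17A at 72 h 0 of 3 were, against 2 of 3 controls. Sex as a block is given with the alternatives. How many animals or cultures stood behind a library is not given in the sources used here, so a p-value below measures only the spread between these libraries. Whether proximal and distal libraries came from the same mice is not given either, and comparisons over both segments entered them as separate libraries.

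Depth over named genes ran from 14222902 to 23686940 reads per library with a median of 17158199. Smad4 was lower in GS4T than in GWTT cells in proximal colon (adjusted p = 0.0101 by limma, -1.09 on the log2 scale), and its distal value of -0.96 (adjusted p = 0.0424) was short of the fold threshold. These libraries held 41.5 to 70.1 CPM against 94.9 to 109. Bmpr1a stood at 105 to 125 CPM in GA3T and 166 to 189 in GWTT cells without passing the test in proximal (adjusted p = 0.12) or distal colon (adjusted p = 0.101, limma). The goblet marker Muc2 stood at 733 to 1027 CPM in GA3M2, 2430 to 12380 in GWTM2 and 11160 to 24430 in GS4M2 goblet libraries. In proximal GA3M2 cells it was lower than in GWTM2 cells (-3.63 on the log2 scale, adjusted p = 0.0464 by limma). Stromal libraries held Col1a1 at 6139 to 14320 CPM. Gli1 itself was at 1.40 CPM in 1 GS4T and at 1.98 CPM in 1 GA3T proximal library against 37.98 to 99.6 in the other stromal libraries. Each pair of knockouts shared its controls, and each pair of cytokines too. Of the 3 control organoid libraries labelled 72 h, 2 held the same reads as 2 control libraries labelled 12 h apart from 2 of 14556 genes, so at most 4 control libraries were distinct and cytokine and time in culture cannot be told apart at 72 h. The controls labelled 2 and 4 at 72 h, and the libraries labelled 3 and 4 of each cytokine at 12 h, lay closer to each other (chi-square per degree of freedom of 3.03 to 3.32) than the other pairs within an organoid group (26.2 to 212). They differed by more than sampling noise and were entered separately, and the effect of averaging them is given with the alternatives. In the proximal GS4M2 table the deposited column names were used. Its columns named GWTM2 held the same reads as those named GWTM2 in the proximal GA3M2 table, with 0 of 13683 shared genes differing, whereas 1 supplementary table of the study heads the columns of this comparison the other way round.

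Amino acids cross the plasma membrane through carriers with overlapping substrates, some moving them down a sodium gradient and others exchanging one amino acid for another. Several Slc7 light chains reach the surface only when bound to an Slc3 heavy chain, Slc3a2 (CD98) for the LAT and xCT exchangers and Slc3a1 (rBAT) for Slc7a9. In the gut, epithelial carriers take up luminal and circulating amino acids for protein, mucin and glutathione synthesis, xCT (Slc7a11) supplies cystine for glutathione, and several genes of these families are known targets of ATF4, the factor of the amino acid response, and of NRF2, the factor of the antioxidant response.

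Slc7a11 had the largest fold change of the families in both Smad4 stromal comparisons, so the 250 bases before its start site are printed, 5' to 3' on the minus strand (RefSeq, GRCm38.p6, chr3:50443614-50443863). Capitals mark matches to the amino acid response element TGATGNAAN, searched on both strands.

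Slc7a11: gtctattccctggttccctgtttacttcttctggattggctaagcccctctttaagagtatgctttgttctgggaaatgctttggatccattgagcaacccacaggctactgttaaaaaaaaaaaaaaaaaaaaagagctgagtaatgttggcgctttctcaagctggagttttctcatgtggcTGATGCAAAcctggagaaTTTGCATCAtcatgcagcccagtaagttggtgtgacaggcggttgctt

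One match lay at -66 to -58 on the strand of the gene and the other at -48 to -40 on the opposite strand, counted from the start site. Of 53 transporters, 38 had at least 1 RefSeq window of 300 bases (250 before to 50 after a start), 59 windows in all, and 4 windows of 3 genes held this motif (6.78%) against 3.95% of all 32851 windows. The other matches were in Slc1a4, which carries neutral amino acids, and Slc7a7, the y+LAT1 exchanger, and their stretches are shown beside each other because both genes were called in Smad4 stromal cells.

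Slc1a4, chromosome 11, at -5 to 4 on the opposite strand: tgcctcctgcGTTGCATCAtctccagcct
Slc7a7, chromosome 14, at -141 to -133: cgcttgggctTGATGAAAGgttcactggg
Slc7a7, chromosome 14, at -1 to 8: acctagaagcTGATGCAACagcttccccg

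The Slc7a7 windows overlap, so the last of these was counted in 2 of them. The antioxidant response element TGACNNNGC was in 10 windows of 8 of the genes (16.9%) against 12.4% of all windows, and the Slc7a11 window held none. These are matches of letters only.

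In control mice, Slc6a14, Slc1a1 and Slc38a1 were among the carriers higher in goblet cells, and Slc43a3 and Slc7a2 were among those higher in stroma. Of 32 members with a row in all 8 control libraries, 31 passed the filter, and 17 of them (54.8%) were called between GWTM2 goblet cells and GWTT stromal cells, against 45.4% of all 12959 genes. Here and below, a gene is called when its limma p, adjusted by Benjamini-Hochberg over all genes tested, is below 0.05 and its log2 fold change is 1 or more in either direction. Since the tables were scaled separately, this comparison used CPM from recovered reads, on the log2(CPM + 0.1) scale, where the median over all genes was 0.23, and TMM scaling, which moves that median to 0.00, called 18. The groups did not overlap for 21 of the 31, against 69.6% of all genes. The 10 called higher in goblet cells (26.3% of all genes were) included carriers of neutral and cationic amino acids and of cystine, and the 7 called higher in stroma (19.1% of all genes) included Slc43a3, which carries nucleobases, and Slc7a2, a cationic carrier.

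Slc6a14 (ATB0,+), a sodium- and chloride-driven carrier of neutral and cationic amino acids, stood at 147, 201, 157 and 313 CPM in the 4 goblet libraries (proximal first) and at 0.367, 37.1, 1.85 and 6.98 CPM in the 4 stromal ones. All goblet libraries were above all stromal ones, but the second proximal stromal library stood far above the other 3. Its summed epithelial markers, 374 CPM over 5 genes, were also above those of the other GWTT libraries (10.5 to 131), and their part in its Slc6a14 level was not tested. The log2 fold change was 5.63 ± 1.30 (SE, n = 4 against 4, adjusted p = 0.00627 by limma). Slc1a1 (EAAC1), which takes up glutamate and cysteine, was at 9.73, 9.70, 9.35 and 20.6 CPM in goblet cells and at 0.122, 0.124, 0 and 0.596 CPM in stroma. Its reads were at or near 0 in stroma, so the size of its fold change (5.59 ± 0.62, adjusted p = 0.000175) depends on the pseudocount. Slc7a11 was low in both cell types, at 4.94, 3.59, 16.4 and 9.32 CPM in goblet cells and 0.673, 1.92, 2.74 and 1.43 CPM in stroma. The groups did not overlap (log2 fold change of 2.18 ± 0.41, adjusted p = 0.00228), and within goblet cells the distal libraries were above the proximal ones.

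Slc38a1 (SNAT1), a sodium-driven glutamine carrier, was at 153, 116, 203 and 138 CPM in goblet cells and 13.2, 11.1, 10.1 and 9.54 CPM in stroma (log2 fold change of 3.77 ± 0.15, adjusted p = 2.06e-06), with no overlap. Slc7a7, whose product exports cationic amino acids from epithelia, was at 63.8, 58.8, 67.3 and 63.7 against 8.32, 8.16, 9.72 and 7.69 CPM (2.89 ± 0.11, adjusted p = 1.54e-06), the narrowest spread of these. Slc3a1 was also called (3.42, adjusted p = 0.0176) although its groups overlapped, with 12.2, 24.1, 1.98 and 16.3 CPM in goblet cells and 0.367, 4.51, 0.179 and 1.19 CPM in stroma, and the lowest goblet library lay below the second proximal stromal library. The remaining called goblet members were Slc7a4 (3.97), Slc6a7, a proline carrier (2.81), Slc1a4 (1.96) and the cationic carrier Slc7a1 (1.35). Rows for Slc1a2, Slc6a19 and Slc7a9 were present in the goblet control tables alone and could not be compared.

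In the other direction, Slc43a3 was at 579, 329.9, 226 and 251 CPM in stroma and at 0.403, 0.378, 0.0567 and 0.438 CPM in goblet cells. Every stromal library was far above every goblet library (log2 fold change of -9.74 ± 0.40, adjusted p = 2.02e-06). Its goblet reads were 8, 6, 1 and 7, so it passed the filter through its stromal reads alone. The size of its fold change depends on the pseudocount. Slc7a2 was at 10.3, 15.6, 7.27 and 11.0 CPM in stroma and 0.655, 1.39, 0.340 and 1.06 CPM in goblet cells (-3.63 ± 0.41, adjusted p = 0.00019), again without overlap. Slc1a3 (GLAST), a glutamate carrier also found in glia, was at 13.7, 16.7, 10.9 and 9.96 against 1.26, 1.76, 1.53 and 1.88 CPM (-2.90, adjusted p = 1.70e-05). The others called higher in stroma were Slc7a8 (LAT2, -1.41), Slc43a1 (LAT3, -1.18), Slc38a6 (-1.17) and Slc36a4 (PAT4, -1.03). The stromal control tables alone held rows for 11 further members, among them the GABA carriers Slc6a11 and Slc6a13 and the glutamate carriers Slc1a6 and Slc1a7.

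**Figure D1:**
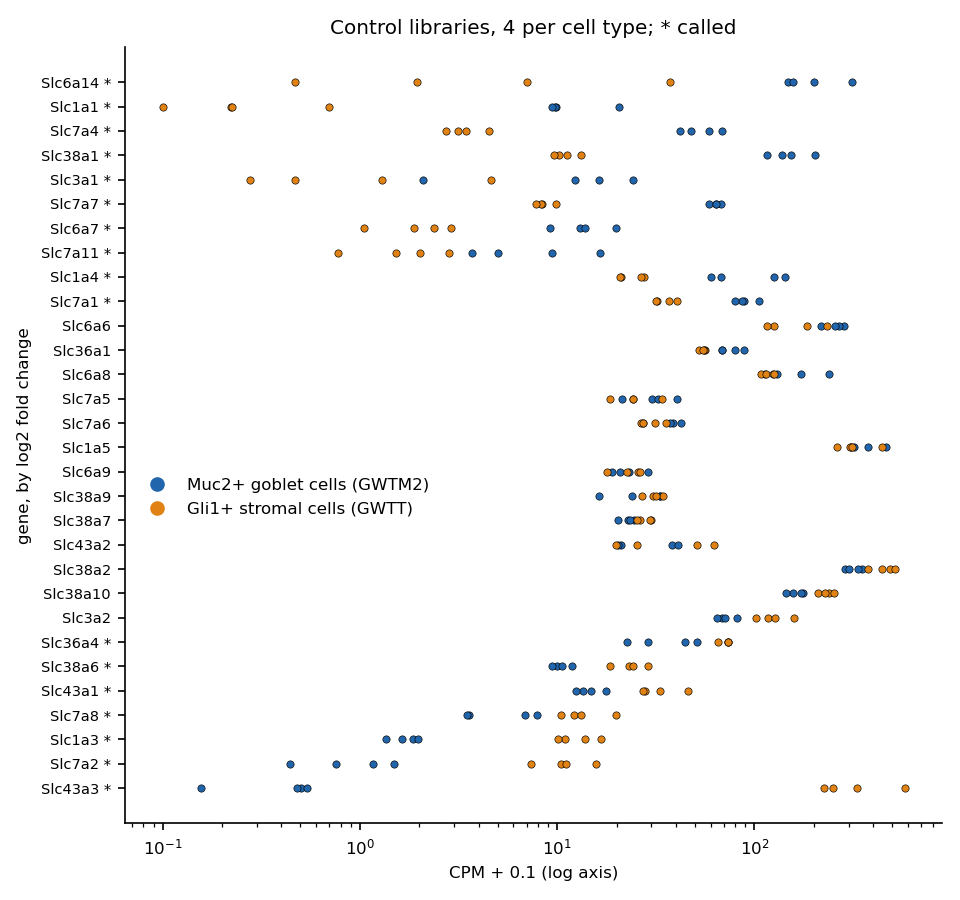
CPM plus 0.1 on a log axis of the 30 transporters tested in all 8 control libraries, ordered by fold change, with each point 1 library of GWTM2 goblet cells or GWTT stromal cells and a star at called genes. Slc6a14 and Slc1a1 lie at the goblet end and Slc43a3 at the stromal end, while Slc1a5, Slc6a9 and Slc38a9 overlap.

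Levels between genes can be compared only per exon length. Per kilobase, Slc1a5 (ASCT2), the sodium-driven glutamine exchanger, ranked first in both cell types, at a mean of 88.1 CPM per kb in goblet cells and 79.3 CPM per kb in stroma. In goblet cells Slc6a14 (59.6 CPM per kb), Slc38a2 (36.1), Slc6a8 (31.4) and the taurine carrier Slc6a6 (30.3) followed. In stroma the next were Slc43a3 (77.6 CPM per kb), the glutamine carrier Slc38a2 (51.7), Slc38a10 (36.2) and the heavy chain Slc3a2 (35.7). Organoid controls at 12 h led with Slc1a5 (72.6 CPM per kb), Slc6a14 (66.6), Slc1a4 (47.2), Slc6a6 (43.9) and Slc38a2 (40.1). Slc6a14, second in goblet cells and in organoids, ranked 19th in stroma.

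Slc7a11 (xCT), the cystine and glutamate exchanger that binds Slc3a2, was the member with the largest changes in Smad4 stroma. In proximal GWTT stroma its normalized count was 11.4 and 31.8, and in GS4T stroma 348 and 265. Both knockout libraries were above both controls, with a log2 fold change of 3.92 ± 0.54 on the log2(count + 1) scale (SE, n = 2 against 2, adjusted p = 0.0149 by limma). In distal stroma the counts were 45.0 and 23.2 in GWTT and 863 and 442 in GS4T cells, without overlap, for a log2 fold change of 4.21 ± 0.45 (adjusted p = 0.00359). The distal call held with each of the 4 libraries left out, whereas the proximal call was lost when either GS4T library was left out. In Alk3 stroma the counts were 67.1 and 207 in proximal GA3T against 12.0 and 33.4 in GWTT cells (log2 fold change of 2.50 ± 0.77, adjusted p = 0.173). The distal ones were 93.9 and 388 against 51.3 and 26.4 (log2 fold change of 2.34 ± 0.74, adjusted p = 0.208). Neither passed the test of limma, the knockout libraries were above the controls in both segments, and the 2 GA3T libraries of a segment lay far apart. DESeq2 on the recovered reads called both.

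In goblet cells, Slc7a11 was at 84.1 and 61.5 in proximal GWTM2 and 368 and 246 in proximal GS4M2 cells (log2 fold change of 2.05 ± 0.28, adjusted p = 0.0603). The groups did not overlap, and the adjusted p missed 0.05. Proximal GA3M2 goblet cells held 299 and 169.7 against 89.6 and 65.0 (log2 fold change of 1.55 ± 0.36, adjusted p = 0.199), also without overlap. DESeq2 called both of these. In distal goblet cells the groups overlapped, with 355 and 163 in GS4M2 and 291 and 169 in GWTM2 cells (log2 fold change of 0.12 ± 0.46, adjusted p = 0.938) and 355 and 254 in GA3M2 against 278 and 163 (log2 fold change of 0.49 ± 0.33, adjusted p = 0.599). The interaction of genotype and segment for Slc7a11 did not pass in GS4M2 (1.93 ± 0.61, adjusted p = 0.565) or in GA3M2 cells (1.05, adjusted p = 1).

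In organoids at 12 h, Slc7a11 counts were 799, 900.1 and 1144 in controls and 1308, 2729.9 and 2656 with IL1 (log2 fold change of 1.17 ± 0.30, adjusted p = 0.772). With IL17A they were 1279, 2429 and 2349 against 839, 943 and 1198 for the same controls (log2 fold change of 0.98 ± 0.27, adjusted p = 0.774). Treated libraries were above controls in both, and DESeq2 called both where limma did not. At 72 h the counts were 2319.9, 1140.0 and 1791 with IL1 against 853, 1087 and 1097 (log2 fold change of 0.74 ± 0.26, adjusted p = 0.0555), and 2415, 3615 and 1516 with IL17A against 852, 1081 and 1095 (log2 fold change of 1.24 ± 0.31, adjusted p = 0.0502). The lowest IL1 library, at 1140.0, lay just above the highest control, and the IL17A adjusted p was just over the threshold and under it by edgeR and DESeq2.

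**Figure D2:**
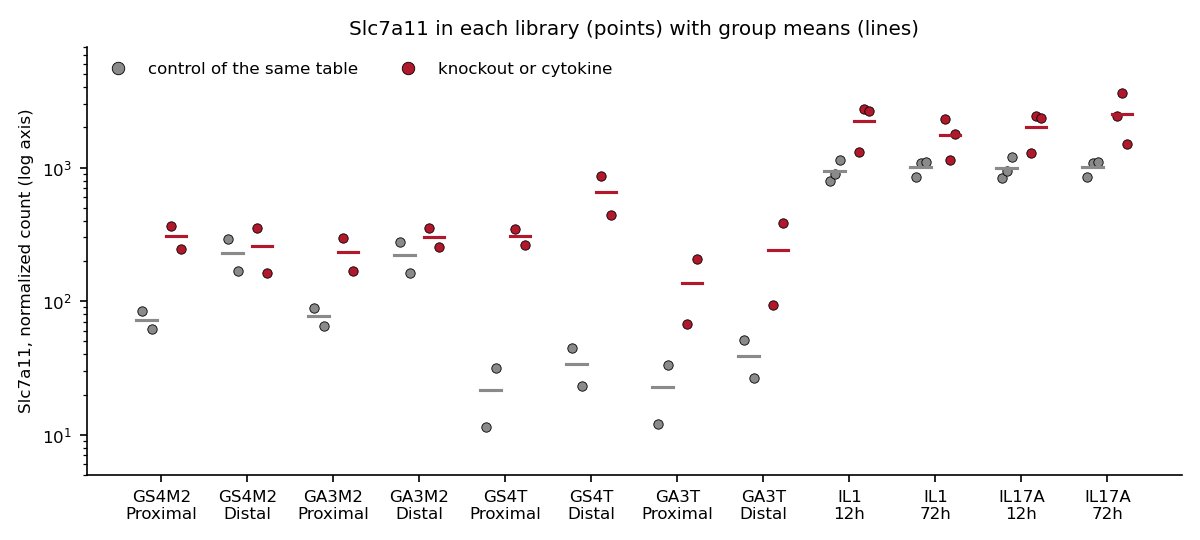
Normalized Slc7a11 counts on a log axis in each library of the 12 comparisons, with points for libraries and lines for group means, controls in grey and knockout or cytokine in red. The GS4T libraries lie between 265 and 863 where their GWTT controls lie between 11.4 and 45.0, and the groups overlap in both distal goblet comparisons. Knockouts of the same cells, and cytokines of the same time, share their controls.

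In Smad4 stroma, members were called in both directions, among them the cystine exchanger Slc7a11, which was higher, and the glutamine exchanger Slc1a5, which was lower, in both segments. In proximal GS4T stroma 9 of 40 tested members (22.5%) were called, against 9.61% of all 15319 genes, and 23 did not overlap between groups, against 65.4% of all genes. Slc7a11, Slc1a4, Slc1a6 and Slc6a11 were higher (4, against 5.25% of all genes), and Slc1a3, Slc1a5, Slc1a7, Slc38a4 and Slc6a15 were lower (5, against 4.36%). In distal GS4T stroma 12 of 42 (28.6%) were called, against 14.0% of all 15262 genes, and 30 did not overlap, against 67.5%. Slc7a11, Slc7a2, Slc7a6, Slc7a7, Slc7a8, Slc38a1, Slc43a3 and Slc6a5 were higher there (8, against 7.88% of all genes), and Slc1a3, Slc1a5, Slc1a7 and Slc6a15 were lower (4, against 6.08%).

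Of the glutamine carriers, Slc1a5 was at 5168 and 7338 normalized counts in proximal GWTT and 2246 and 2071 in GS4T stroma. Both knockout libraries were below both controls (log2 fold change of -1.51 ± 0.19, adjusted p = 0.0118). Distal counts were 4292 and 5080.3 against 1791 and 2257 (log2 fold change of -1.22 ± 0.15, adjusted p = 0.00567), again without overlap, and this call held with each library left out. Slc38a2 (SNAT2), a sodium-driven carrier induced when amino acids are scarce, was at 8259 and 8596 in proximal GWTT and 4416 and 4459 in GS4T cells. The groups were clearly apart, and its log2 fold change of -0.92 ± 0.10 (adjusted p = 0.00933) fell short of the fold threshold. Slc38a1 was at 165 and 155 in distal GWTT and 384 and 290.0 in GS4T cells, without overlap (log2 fold change of 1.06 ± 0.22, adjusted p = 0.0219). Slc38a4 (SNAT4), a neutral carrier, was at 256 and 258 in proximal GWTT and 21.2 and 28.9 in GS4T cells (log2 fold change of -3.33 ± 0.31, adjusted p = 0.00708). Its distal groups did not overlap either (73.3 and 28.1 against 15.1 and 15.3) but did not pass (adjusted p = 0.123).

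Among the glutamate carriers, Slc1a3 was at 232 and 277 in proximal and 179 and 162 in distal GWTT stroma. GS4T stroma held 98.7 and 108 proximally (log2 fold change of -1.29 ± 0.22, adjusted p = 0.0238) and 59.3 and 76.3 distally (log2 fold change of -1.32 ± 0.28, adjusted p = 0.024). The groups were apart in both segments. Slc1a7 (EAAT5) was at 79.6 and 128 against 9.22 and 11.0 proximally (log2 fold change of -3.21 ± 0.46, adjusted p = 0.0162) and at 48.9 and 68.7 against 15.1 and 16.4 distally (log2 fold change of -1.82 ± 0.45, adjusted p = 0.0379), so that the GS4T libraries were near the detection filter. Slc1a6 (EAAT4) went the other way in proximal stroma, from 13.4 and 11.3 to 59.0 and 66.8 (log2 fold change of 2.26 ± 0.44, adjusted p = 0.0316). Its distal groups overlapped (0.14, adjusted p = 0.824).

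Of the Slc6 carriers, Slc6a11 (GAT3), a GABA carrier, was at 258 and 476 in proximal GWTT and 1091 and 968 in GS4T stroma (log2 fold change of 1.55 ± 0.30, adjusted p = 0.0319). Distally it stood the other way, at 871 and 1022 against 626 and 531 (log2 fold change of -0.71 ± 0.15, adjusted p = 0.0239), which was short of the fold threshold. The groups did not overlap in either segment, and the difference between segments, 2.26 ± 0.38, had an adjusted p of 0.0849 in limma, while DESeq2 called it. Slc6a15 (B0AT2), a neutral carrier, was at 97.2 and 68.7 against 6.46 and 15.9 proximally (-2.88, adjusted p = 0.0345) and at 25.4 and 43.6 against 4.43 and 4.70 distally (-2.63, adjusted p = 0.0339). Its distal GS4T counts were below the filter, which it passed through its GWTT counts alone. Slc6a5 (GlyT2), a glycine carrier, was at 1.96 and 0 in distal GWTT and 46.9 and 18.8 in GS4T cells. With almost no control reads its fold change (4.16, adjusted p = 0.0296) depends on the pseudocount, and it was not called with a pseudocount of 0.1. Slc6a13 (GAT2), another GABA carrier, was at 11.4 and 35.9 against 1.84 and 0 proximally and did not pass (adjusted p = 0.071).

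The Slc7 exchangers called in distal GS4T stroma were all higher. Slc7a6 (y+LAT2) was at 443 and 509 in GWTT and 907 and 1123 in GS4T cells (log2 fold change of 1.09 ± 0.16, adjusted p = 0.00821). Slc7a2 (CAT2), the cationic carrier, was at 119 and 179 against 741 and 329 (log2 fold change of 1.75 ± 0.42, adjusted p = 0.0333). Slc7a7 was at 159 and 125 against 328 and 272 (log2 fold change of 1.08 ± 0.23, adjusted p = 0.0245) and Slc7a8 at 323 and 214 against 625 and 444 (log2 fold change of 1.00 ± 0.27, adjusted p = 0.0457). None of these groups overlapped. Slc43a3 was at 3712 and 4071 against 6359 and 10936 (log2 fold change of 1.10 ± 0.25, adjusted p = 0.0303), and in proximal stroma its groups overlapped (0.08). Slc1a4 was at 356 and 343 in proximal GWTT and 682 and 755 in GS4T stroma (log2 fold change of 1.04 ± 0.13, adjusted p = 0.0119), and its distal log2 fold change of 0.80 (adjusted p = 0.011) was short of the fold threshold. The heavy chain Slc3a2 was not called, at 1969 and 1694 against 2142 and 2105 proximally (0.22, adjusted p = 0.238) and at 2088 and 2568 against 2533 and 2112 distally (-0.00, adjusted p = 0.997).

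Markers of other cells moved with the Smad4 stromal groups. Summed macrophage markers (8 genes) were 911 to 2044 CPM in GS4T against 177 to 704 in GWTT stroma, with 6 of 8 called higher proximally (5.25% of all genes were). Neutrophil markers (4 genes) were 38.6 to 161 against 2.08 to 6.30. Epithelial markers (5 genes) were 525 to 1175 CPM in GS4T against 10.5 to 374 in GWTT, and lymphoid markers (4 genes) were 170 to 860 against 1607 to 4787. Most of the lymphoid sum was Jchain, at 107 to 804 against 1534 to 4705 CPM, while Ptprc overlapped, at 38.04 to 60.52 against 43.99 to 64.25. The part of these markers in the member results was not tested, and in such sorted bulk samples fewer cells of a type cannot be told apart from less RNA per cell. Leaving out 1 library at a time gave 0 to 12 called members proximally, with 0 without either GS4T library and 12 without the second GWTT library, and 3 to 6 distally whichever library was left out, with 3 without the first GWTT library. No interaction of genotype and segment was called among the members by limma (0.189% of all genes), with 6 at an unadjusted p under 0.05, 0 by edgeR and 1 by DESeq2, which was Slc6a11.

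Alk3 deletion in Gli1+ stroma gave fewer calls. In proximal GA3T stroma 1 of 41 tested members was called, against 0.358% of all 15346 genes, and 22 did not overlap, against 56.4%. The call was for a higher level (0.345% of all genes) and fell on Slc1a6, at 14.1 and 11.9 in GWTT and 174 and 232 in GA3T cells (log2 fold change of 3.86 ± 0.37, adjusted p = 0.0496). The GA3T libraries were far above both controls, but edgeR, a pseudocount of 0.1 and each library left out in turn lost the call. In distal stroma Slc1a6 was at 49.1 and 66.1 against 78.9 and 75.5 (0.43, adjusted p = 0.526), also without overlap. DESeq2 called 6 members proximally, namely Slc1a6, Slc1a7, Slc38a4, Slc43a2, Slc6a11 and Slc7a11, against 6.31% of all genes. Their limma values were short of the threshold, for example 354 and 441 against 899 and 929.9 for Slc43a2 (LAT4), an exporter of branched-chain amino acids (log2 fold change of 1.21 ± 0.16, adjusted p = 0.069), and 272 and 501 against 1048 and 1002 for Slc6a11 (log2 fold change of 1.47 ± 0.30, adjusted p = 0.104).

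Limma called 0 of 42 members in distal GA3T stroma (0% of all 15414 genes), with 6 at an unadjusted p under 0.05, 0 by edgeR and 2 by DESeq2, and 20 did not overlap, against 54.3% of all genes. The largest fold changes without overlap were those of Slc6a5, at 2.23 and 0 against 9.02 and 97.8, and of Slc6a14, at 34.6 and 129 against 679 and 188 (log2 fold change of 2.40 ± 0.84, adjusted p = 0.233). In each of these 1 GA3T library was several times the other. Slc38a5 (SNAT5), a glutamine and glycine carrier tested only in proximal GA3T stroma, was at 23.9 and 15.1 in GWTT and 6.01 and 0 in GA3T cells (adjusted p = 0.244). Slc1a5 was at 5437 and 7715 in proximal GWTT and 4140.3 and 2532 in GA3T cells (adjusted p = 0.165), and at 4896 and 5781 and 3315 and 2476 distally (log2 fold change of -0.89 ± 0.18, adjusted p = 0.13). Both GA3T libraries were below both controls in each segment, and neither test passed. Macrophage markers were 746 to 1384 CPM and epithelial markers 328 to 751 CPM in GA3T stroma, and their part was not tested. No interaction with segment was called (0% of all genes), with 3 members at an unadjusted p under 0.05, 0 by edgeR and 2 by DESeq2.

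**Figure D3:**
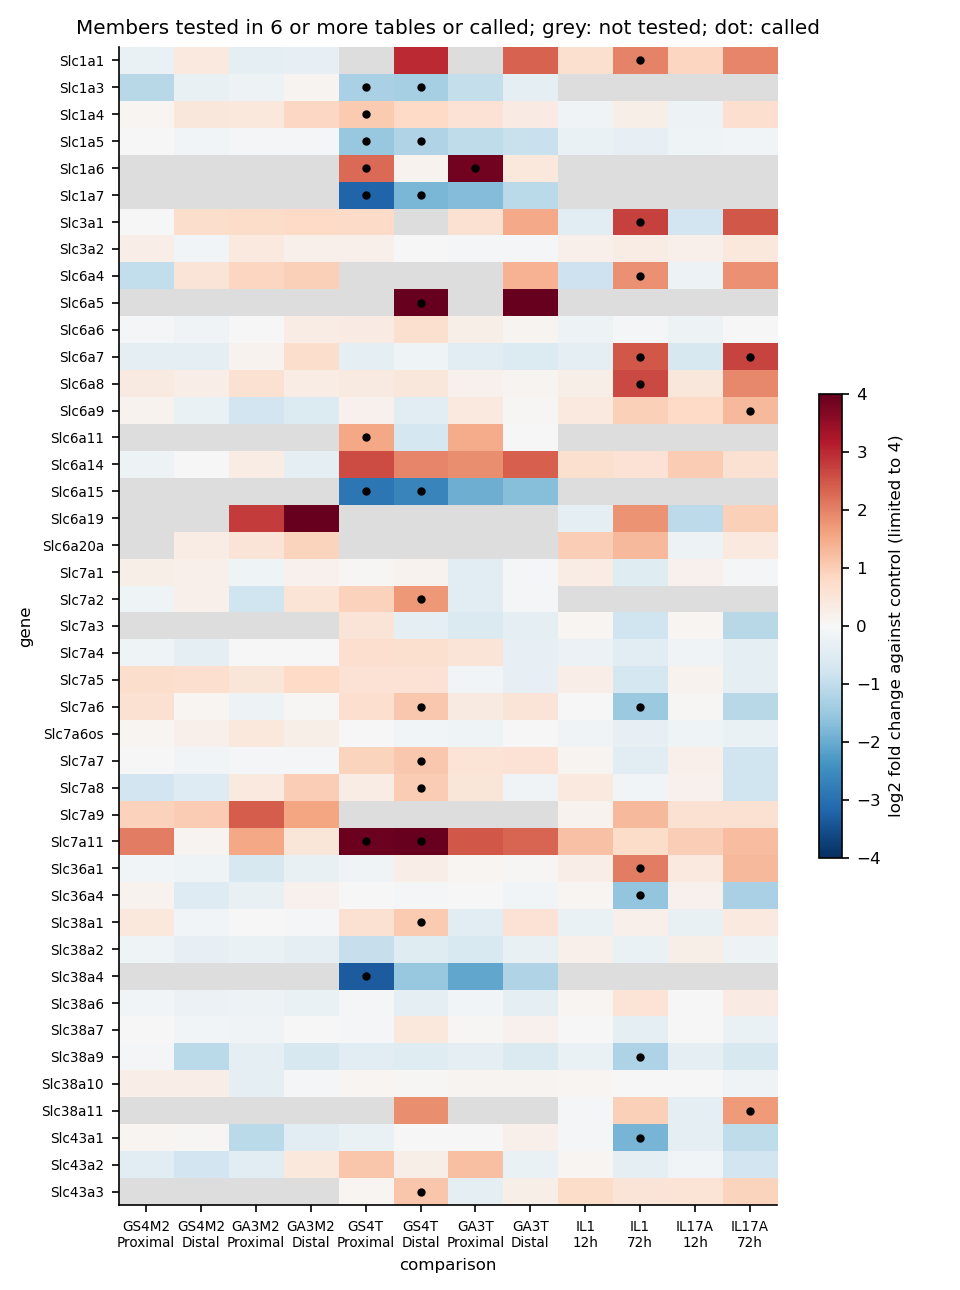
Log2 fold changes, with colours limited to 4 on either side, of the members called at least once or tested in at least 6 of the 12 comparisons against control, with genes as rows and comparisons as columns, grey for not tested and a dot for called. Dots stand mainly in both GS4T columns (9 and 12) and in the IL1 72 h column (10), 1 lies in the GA3T proximal and 3 in the IL17A 72 h column, and the other columns have none.

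In goblet cells of mice lacking stromal Smad4, no member was called. In proximal GS4M2 cells limma called 0 of 34 (0.325% of all 13246 genes), with 6 at an unadjusted p under 0.05 at any fold, 0 by edgeR and 1 by DESeq2 (Slc7a11, above), and 19 did not overlap, against 50.2%. The next largest fold changes without overlap were in low genes, Slc1a3 at 21.5 and 30.2 in GWTM2 and 20.0 and 6.11 in GS4M2 cells, and the serotonin carrier Slc6a4 at 93.6 and 95.0 and 34.7 and 63.1 (log2 fold change of -0.99, adjusted p = 0.236). Slc7a5 (LAT1), the exchanger for large neutral amino acids, was at 516 and 553 in GWTM2 and 971 and 786 in GS4M2 cells (log2 fold change of 0.71 ± 0.14, adjusted p = 0.107), with both knockout libraries above the controls. Slc7a8 was at 115 and 134 against 75.7 and 68.2 (-0.78, adjusted p = 0.189). Slc6a14 overlapped between groups, at 2508 and 3440.1 and 1815 and 3658. Summed absorptive colonocyte markers were 1038 and 1682 CPM in proximal GS4M2 against 3020 and 6690 in GWTM2 libraries. Enteroendocrine markers were 16.0 and 40.0 against 78.2 and 54.8 CPM, and goblet markers were higher, at 35225 and 39122 against 29588 and 32656. The part of these markers in the member results was not tested.

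In distal GS4M2 cells limma called 0 of 35 (0% of all 13078 genes), with 6 at an unadjusted p under 0.05, 0 by edgeR and 1 by DESeq2, and 15 did not overlap, against 45.7%. The DESeq2 call was Slc38a9, the lysosomal arginine sensor of mTORC1, at 288 and 432 in GWTM2 and 179 and 154 in GS4M2 cells (log2 fold change of -1.08 ± 0.26, adjusted p = 0.381 by limma). Both knockout libraries were below both controls. Slc43a2 was at 373 and 366 against 217 and 219.7 (log2 fold change of -0.76 ± 0.16, adjusted p = 0.373) and the cystine and dibasic carrier Slc7a9 at 17.1 and 10.2 against 25.6 and 30.3 (log2 fold change of 1.02 ± 0.47, adjusted p = 0.503), again apart but not called. Slc7a5 was at 712 and 384 against 952 and 743 (log2 fold change of 0.68 ± 0.32, adjusted p = 0.508).

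In goblet cells of mice lacking stromal Alk3, limma called 0 of 37 members proximally (0.0899% of all 13346 genes), with 5 at an unadjusted p under 0.05, 0 by edgeR and 3 by DESeq2 (Slc7a11, Slc7a9 and Slc43a1), and 19 did not overlap, against 52.1%. Slc7a9 was at 11.0 and 21.7 in GWTM2 and 30.2 and 249 in GA3M2 cells (log2 fold change of 2.42 ± 0.98, adjusted p = 0.323), with 1 knockout library far above the other. Its heavy chain Slc3a1 was at 221 and 436 against 272 and 996, highest in the same library, with overlapping groups. Slc43a1 was at 243 and 266 against 129.8 and 111 (log2 fold change of -1.08 ± 0.24, adjusted p = 0.182), both below the controls. Slc7a15, low everywhere, was at 4.57 and 4.56 against 9.06 and 49.8. In distal GA3M2 cells 0 of 35 were called (0% of all 13082 genes), with 3 at an unadjusted p under 0.05 and 0 by edgeR and by DESeq2, and 13 did not overlap, against 44.2%. Slc6a19 (B0AT1), the main neutral carrier of absorptive epithelium, was at 0 and 6.56 in GWTM2 and 8.81 and 216 in GA3M2 cells, and Slc7a9 at 16.3 and 9.83 against 22.5 and 69.0. Slc1a4 was at 1016 and 1179 against 2088 and 1816 (log2 fold change of 0.83 ± 0.16, adjusted p = 0.302), Slc7a8 at 58.6 and 59.0 against 60.7 and 229, and Slc6a4 at 93.1 and 185 against 187 and 341. The groups were apart in each of these without a call. Summed goblet markers (7 genes) were 8878 to 20978 CPM in GA3M2 against 29588 to 61186 in GWTM2 libraries. In proximal GA3M2 cells stromal markers (8 genes) were 8.05 and 29.8 CPM against 1.72 and 2.46, and smooth muscle markers (3 genes) were 0.937 and 10.8 against 0 in both controls. Summed macrophage markers were 110 and 127 CPM against 62.6 and 42.1. The macrophage marker Lyz2 was called higher (8.61), whereas Cd68 (1.17), C1qa (0.39) and Mrc1 (-0.21) were not called. The second library, which had the highest Slc7a9 and Slc7a15 values, was the highest in stromal and smooth muscle markers, and the part of these markers was not tested. No interaction with segment was called in GS4M2 or GA3M2 cells by limma (0% of all genes in each), with 4 and 1 members at an unadjusted p under 0.05 and 0 by edgeR and by DESeq2 in each.

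In organoids at 12 h, limma called 0 of 35 members with IL1 (0.0542% of all 12913 genes) and 0 of 35 with IL17A (0.0385% of all 12977 genes), with 3 each at an unadjusted p under 0.05, 0 by edgeR and 1 each by DESeq2, which was Slc7a11. The groups did not overlap for 5 members with IL1, against 9.53% of all genes, and for 4 with IL17A, against 10.9%. Slc6a14 counts were 4464, 2594 and 4335 in controls, 6588, 7648 and 8105 with IL17A (log2 fold change of 1.01 ± 0.22, adjusted p = 0.525) and, on the scale of the other table, 5028, 6058 and 5585 with IL1 (log2 fold change of 0.65 ± 0.22, adjusted p = 0.886). All treated libraries were above the controls. Slc6a9 (GlyT1), a glycine carrier, was at 457, 519.6 and 292 in controls and 949, 640.5 and 605 with IL17A (log2 fold change of 0.80 ± 0.27, adjusted p = 0.896). Slc6a20a, an imino acid carrier, was at 20.6, 10.3 and 24.7 in controls and 36.7, 35.9 and 34.5 with IL1 (log2 fold change of 0.99 ± 0.38, adjusted p = 0.886), and Slc43a3 at 16.9, 15.0 and 4.42 against 17.8, 18.9 and 18.6. Between IL1 and IL17A at 12 h no member was called (0% of all genes), with 2 at an unadjusted p under 0.05, 0 by edgeR and 0 by DESeq2, and 2 did not overlap, against 4.82%.

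At 72 h with IL1, 10 of 35 tested members (28.6%) were called, against 23.0% of all 13023 genes, and 18 did not overlap, against 54.7%. The 6 higher (10.9% of all genes were) were Slc6a8, Slc3a1, Slc6a7, Slc36a1, Slc1a1 and Slc6a4, and the 4 lower (12.2% of all genes) were Slc43a1, Slc36a4, Slc7a6 and Slc38a9. Because 2 of the 3 controls hold reads that are also labelled 12 h, these are comparisons of 72 h treated organoids with largely the same control libraries as at 12 h.

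Slc6a8, the creatine carrier, was at 1173, 1432 and 1447 normalized counts in controls and 6282, 6780.0 and 13784 with IL1. All treated libraries were several times the controls (log2 fold change of 2.64 ± 0.29, adjusted p = 0.00264), and the call held with each library left out. Slc3a1 was at 597, 140.0 and 101 against 947, 990.5 and 2638 (log2 fold change of 2.72 ± 0.67, adjusted p = 0.0166), apart although 1 control stood well above the other 2. Its partner Slc7a9 was at 36.4, 42.9 and 40.7 against 50.6, 119 and 159 (log2 fold change of 1.28 ± 0.44, adjusted p = 0.0522), just short of the threshold. Slc36a1 (PAT1), a proton-driven carrier of small neutral amino acids, was at 414, 884 and 847 against 1906, 1919 and 5861 (log2 fold change of 2.04 ± 0.48, adjusted p = 0.0139). Slc1a1 was at 24.8, 79.1 and 109 against 435, 116 and 269.8 (log2 fold change of 1.97 ± 0.64, adjusted p = 0.0436), with the lowest treated library close to the highest control. Slc6a4 was at 53.2, 74.3 and 81.4 against 406, 135 and 279.7 (log2 fold change of 1.84 ± 0.42, adjusted p = 0.0124) and Slc6a7 at 106, 55.3 and 73.8 against 1352, 174 and 332 (log2 fold change of 2.48 ± 0.68, adjusted p = 0.0238). For Slc6a7, Slc6a4 and Slc1a1 the first IL1 library was the highest and the second the lowest. The study's supplement holds other values in place of that second library. By Xist it was also the only female IL1 library at 72 h.

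Among the members that fell, Slc7a6 was at 609, 736 and 659 in controls and 299, 261 and 167 with IL1 (log2 fold change of -1.50 ± 0.24, adjusted p = 0.00454). Slc43a1 was at 37.3, 48.6 and 40.7 against 18.1, 7.97 and 8.78 (log2 fold change of -1.85 ± 0.45, adjusted p = 0.0154) and Slc36a4, an amino acid carrier of endosomes and lysosomes, at 249, 237 and 241 against 50.6, 138 and 74.6 (log2 fold change of -1.58 ± 0.36, adjusted p = 0.013). Slc38a9 was at 229, 189 and 169.6 against 69.8, 119 and 66.9 (log2 fold change of -1.23 ± 0.30, adjusted p = 0.0157). All treated libraries were below all controls for these 4. Slc7a5, at 1205, 1044 and 1120.2 against 733, 634 and 680.1 (adjusted p = 0.00785), was also apart with a log2 fold change of -0.72, short of the fold threshold, as was Slc6a9 on the higher side (0.96, adjusted p = 0.0171). Summed absorptive colonocyte markers (5 genes) were 4625 to 10719 CPM with IL1 against 1872 to 4267 CPM in controls, with Aqp8, Car4 and Slc26a3 called higher, and their part was not tested. Leaving out 1 library at a time gave 5 to 12 called members, with 5 without the second control, and averaging the near-identical controls gave 5. Slc36a1, Slc36a4, Slc6a4, Slc6a8 and Slc7a6 were called in each of these, and with the replicate number as a block 4 were called, Slc36a1, Slc6a7, Slc6a8 and Slc7a6.

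With IL17A at 72 h, 3 of 35 members (8.57%) were called, all higher, against 7.94% of all 13073 genes called in either direction and 5.02% called higher, and 13 did not overlap, against 45.3%. Slc6a7 was at 106, 54.9 and 73.6 in controls and 1175, 268 and 389 with IL17A (log2 fold change of 2.70 ± 0.56, adjusted p = 0.0421). Slc6a9 was at 469, 324 and 267 against 758, 935 and 872 (log2 fold change of 1.31 ± 0.24, adjusted p = 0.0356) and Slc38a11 at 32.8, 14.2 and 22.8 against 76.2, 68.7 and 76.8 (log2 fold change of 1.70 ± 0.39, adjusted p = 0.0462). The treated libraries were above the controls for all 3. The second IL17A library stood apart from the other 2 and set the spread, and the study's supplementary table holds other values in place of the second 72 h library of each cytokine. Slc6a8, for example, was at 5346, 1585 and 15361 with IL17A and 1171, 1424 and 1444 in controls (log2 fold change of 1.92 ± 0.73, adjusted p = 0.103), Slc6a4 at 446, 102 and 316 against 53.1, 73.9 and 81.2, Slc36a1 at 2138, 327 and 6589 against 413, 879 and 845, and Slc1a1 at 559, 60.2 and 384 against 24.8, 78.6 and 109. Without that library 14 members were called, without the first control 1, and without any other library 0. Absorptive colonocyte markers were 2734 to 9327 CPM with IL17A, lowest in that library, against 1872 to 4267 CPM in controls, epithelial markers were 8651 to 9599.7 against 6473 to 7399 CPM, and their part was not tested. Averaging the near-identical controls also gave 0, and DESeq2 gave 9. Between IL1 and IL17A at 72 h no member was called by limma, edgeR or DESeq2 (0% of all genes), with 0 at an unadjusted p under 0.05, and 1 did not overlap, against 2.77%. The difference for Slc6a8, IL1 minus IL17A, was 0.71 ± 0.68 on the log2 scale (adjusted p = 1).

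**Figure D4:**
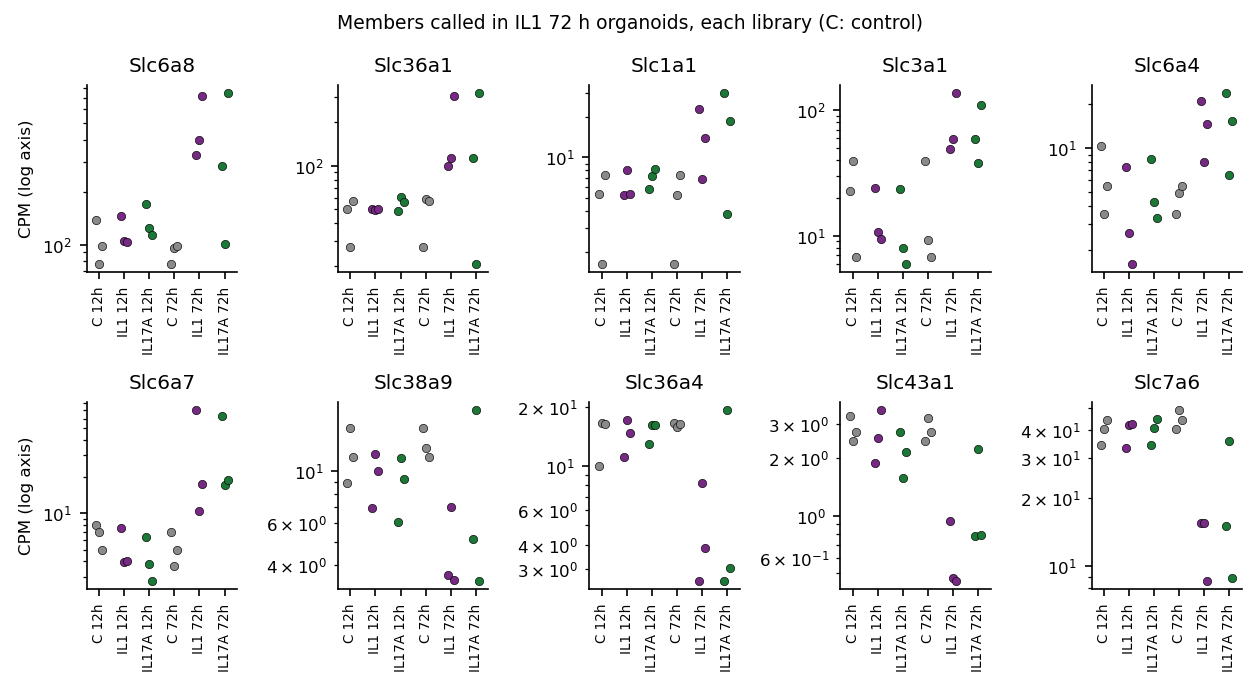
CPM on log axes of the 10 members called with IL1 at 72 h in every organoid library, with controls in grey, IL1 in purple and IL17A in green at 12 and 72 h. The IL1 72 h points lie above the 72 h controls for Slc6a8, Slc36a1, Slc1a1, Slc3a1, Slc6a4 and Slc6a7 and below them for the other 4, 1 IL17A 72 h point lies near the controls in most panels, and 2 control points are the same library at both times.

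The log2 fold change with IL1 at 72 h minus that at 12 h was tested as an interaction. In it 6 of 35 members (17.1%) were called, against 17.4% of all genes. Because control libraries are shared between the times, it cannot separate the response to IL1 from time in culture. The shared libraries were entered at each time, so the p-values of the time interactions treat the same reads as independent. Slc6a7 (2.85), Slc6a4 (2.67) and Slc6a8 (2.40) were more positive at 72 h (7.34% of all genes), and Slc43a1 (-1.77), Slc36a4 (-1.64) and Slc7a6 (-1.52) were more negative (10.1%). The count was 2 to 9 with 1 library left out and 0 with near-identical libraries averaged, and Slc6a8 and Slc7a6 were called with each library left out. With each distinct control entered once, the controls have no weight. That fit compared IL1 libraries at 72 h with IL1 libraries at 12 h, called 10 and is not an interaction. For IL17A no member was called (0.0384% of all genes), with 8 at an unadjusted p under 0.05, 0 by edgeR and 5 by DESeq2.

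Lists of related genes were read beside the families. Of 26 genes of the amino acid response, which ATF4 drives when amino acids run short, 1 was higher and 4 lower in proximal GS4T stroma, with Asns (asparagine synthetase) at 1.39 and Atf3, Vldlr, Phgdh and Stc2 at -2.19 to -1.45 on the log2 scale. Distally Ddit4 (2.43) and Asns (1.39) were higher and Chac1, Stc2, Pycr1 and Atf3 lower (-2.08 to -1.26). Of all genes, 5.25% were called higher and 4.36% lower proximally, and 7.88% higher and 6.08% lower distally. The list's median log2 fold change was 0.02 proximally and 0.17 distally, beside 0.02 and 0.00 over all genes tested. With IL1 at 72 h Atf3 (2.38), Ddit4 (1.27), Stc2 (1.15) and Ddit3 (1.09) were higher and none lower. With IL17A at 72 h Atf3 (2.06), Ddit4 (1.18) and Stc2 (1.09) were higher again, and so were Trib3 (1.06) and Vldlr (1.06). Of all genes, 10.9% were called higher with IL1 and 5.02% with IL17A at 72 h. The list medians were 0.45 and 0.52, beside medians within 0.01 of 0 over all genes tested. No gene of this list was called in the other 8 comparisons with a control.

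Of 11 genes of glutathione and cystine use, Gsr (glutathione reductase, 1.28) was higher in proximal GS4T stroma and Gsr (1.99), Gss (glutathione synthetase, 1.01) and Hmox1 (haem oxygenase, 1.76) in distal. With IL1 at 72 h Srxn1 (1.72) and Gclc, the catalytic subunit of the first step of glutathione synthesis (1.28), were higher, and with IL17A at 72 h Srxn1 (1.78), Gclc (1.40) and its partner Gclm (1.40). Control goblet cells had 6 of the 11 higher (26.3% of all genes were) and Hmox1 lower (-3.21, 19.1% of all genes) than stroma. Of 10 partners and other transport genes, the peptide carrier Slc15a1 (2.56) was higher and Slc16a10, an exporter of aromatic amino acids (-2.73), lower with IL1 at 72 h. The peptidase Anpep was lower in GS4T stroma (-1.01 proximally, -1.54 distally), and it was also lower in control goblet cells than in stroma (-6.65). Of 18 genes of amino acid sensing upstream of mTORC1, Sesn1 was lower in proximal GS4T stroma (-1.01), Castor2 was higher with IL1 at 72 h (1.67), and Lamtor2 was higher (1.22) and Sesn1, Castor1 and Castor2 lower (-1.72, -1.83 and -3.82) in goblet cells than in stroma.

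Many members were tested widely and called in none of the 12 comparisons with a control. The heavy chain Slc3a2 had log2 fold changes between -0.12 and 0.41, Slc6a6 between -0.21 and 0.63, Slc7a1 between -0.50 and 0.29, Slc38a10 between -0.36 and 0.26, Slc38a7 between -0.38 and 0.42 and Slc7a6os between -0.32 and 0.43, in all 12 comparisons. Slc6a6 was at 1903 and 2994 in distal GWTT and 3742 and 3654 in GS4T stroma, where its value was highest, and Slc7a1 at 2367, 2204 and 2213 in 72 h controls and 2089.9, 1287 and 1519 with IL1, where it was lowest. Slc7a5 (-0.72 to 0.78), Slc38a2 (-0.92 to 0.23), Slc43a2 (-0.77 to 1.21) and Slc6a14 (-0.40 to 2.62) were not called either. In proximal GS4T stroma, where the Slc6a14 value was highest, its GWTT controls lay far apart, at 6.20 and 616, with 428 and 392 in GS4T cells. Distal GA3T stroma, which has other controls, gave a log2 fold change of 2.4. Slc38a3 was tested in distal GS4T stroma alone, at 8.80 and 3.87 against 11.5 and 22.3. Exons of 13 of the 54 genes overlap a gene on the opposite strand in GENCODE M21, among them Slc1a1, Slc3a1, Slc6a9 and Slc7a7 in each case with a protein-coding gene, and since the strand of counting is not given, reads of these pairs cannot be told apart.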

How the data were processed

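RNA was sequenced from sorted mouse goblet and stromal cells and from colonic organoids, in 42 libraries. The authors aligned uniquely with STAR 2.5.3 to mm10 and normalized gene counts with DESeq2 1.28.1, per the labels and the study's methods. The counting program, annotation and strand are not given in the sources used here. The deposited values are a normalized signal, gene counts divided by 1 size factor per library within each of 12 tables. Dividing by each column's step (0.75 to 1.26) recovered whole reads, with 100% of values within 0.1 of a whole number, and these gave depth, CPM and the input of edgeR 4.0.16 and DESeq2 1.42.0. Rows without a gene name, which were 4 in each GS4M2 table and held 20.9 to 28.2% of reads, were left out.

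Groups came from the labels. Each comparison was fitted alone with limma 3.58.1 (trend) on log2(value + 1) over genes with a mean of at least 10, and GWTM2 was compared with GWTT on log2(CPM + 0.1). Of 21 comparisons, 12 were against a control, 6 were interactions over a pair of tables, 2 compared the cytokines and 1 the cell types. P-values were adjusted (Benjamini-Hochberg) over all genes tested, and every adjusted p printed comes from limma. A gene was called when its adjusted p was below 0.05 and its log2 fold change was 1 or more in either direction. The members and lists were chosen with earlier results of these data known. Called members, a list of main carriers, and the 3 members with the largest fold change without overlap per comparison are named with their values.

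Alternatives were other pseudocounts (0.1 and 10 for counts), filters (none and 50), TMM scaling, edgeR, DESeq2, the replicate number as a block and each library left out. The library's sex, near-identical libraries averaged and distinct controls entered once were chosen after seeing the data. Positions are those of GENCODE M21 (GRCm38) and promoters those of RefSeq (GRCm38.p6). The scripts were tested on simulated data. Some genes are not reported here. Each ± after a fold change is a standard error.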

Additional observations from a re-analysis of the deposited data

Results flagged for a closer look

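Among the interactions tested, 6 of 35 members (17.1%, against 17.4% of all genes) were called for IL1. This is the log2 fold change at 72 h minus that at 12 h, given with the limma adjusted p. The values were -1.64 for Slc36a4 (adjusted p = 0.0259), -1.77 for Slc43a1 (0.0264), 2.67 for Slc6a4 (0.0345), 2.85 for Slc6a7 (0.0324), 2.40 for Slc6a8 (0.00594) and -1.52 for Slc7a6 (0.00722). Every one of these rests on control libraries of which 2 are the same at both times. A change in the response to IL1 therefore cannot be told apart from time in culture. Those 2 libraries were entered at each time as separate ones, so each adjusted p treats the same reads as independent. Averaging near-identical libraries left none of the 6 called. With each library left out in turn, Slc6a8 and Slc7a6 were called each time.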

How the results depend on the processing

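The numbers of called members depended on the tool and on single libraries. DESeq2 at its adjusted p called 1 in GS4M2 proximal, 1 in GS4M2 distal, 3 in GA3M2 proximal, 6 in GA3T proximal, 2 in GA3T distal, 1 with IL1 at 12 h, 1 with IL17A at 12 h and 9 with IL17A at 72 h, and 1, 2 and 5 in the GS4T segment, GA3T segment and IL17A time interactions. At its unadjusted p with the same fold, the study's threshold, these counts were 1, 1, 5, 7, 3, 1, 1 and 9, and 4, 3 and 6, and it also called 1 in GA3M2 distal, 1 between the cytokines at 12 h, and 3, 1 and 10 in the GS4M2 segment, GA3M2 segment and IL1 time interactions. In GA3T proximal the call was lost (0) with a pseudocount of 0.1, a filter of 50 or edgeR. Sex as a block gave 2 in GS4M2 distal, 1 in GA3M2 distal, 2 in GA3T proximal, 1 in GA3T distal, 1 with IL17A at 12 h, 1 between the cytokines at 12 h and 0 with IL17A at 72 h. Averaging near-identical libraries gave 5 with IL1 and 0 with IL17A at 72 h and 0 in the IL1 time interaction. Distinct controls entered once gave 6 with IL17A at 72 h. In place of the time interactions, that fit compared treated libraries at 72 h with those at 12 h. It gave the controls no weight and called 10 for IL1 and 6 for IL17A.

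With 1 library left out, a lone library being assumed to vary like the others, counts ran from 0 to 1 in GS4M2 proximal, 0 to 2 in GS4M2 distal, 0 to 4 in GA3M2 proximal, 0 to 3 in GA3M2 distal, 0 to 12 in GS4T proximal, 3 to 6 in GS4T distal, 0 to 2 in both GA3T segments, 5 to 12 with IL1 and 0 to 14 with IL17A at 72 h, 0 to 1 in the GS4T segment interaction, and 2 to 9 and 0 to 9 in the IL1 and IL17A time interactions. The difference between goblet and stromal controls gave 16 to 18 called members under every alternative run. No alternative reversed a called direction.

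Same-numbered libraries correlated at -0.186 to 0.637 in their deviations, with fewer than 3 pairs per table, so the numbers were not taken as pairing. With the replicate block the counts were 1 in GS4M2 proximal, 3 in GA3M2 proximal, 2 in GA3T proximal, 1 with IL1 and 1 with IL17A at 12 h, 4 with IL1 and 0 with IL17A at 72 h, 1 between the cytokines at 12 h and 1 in the IL17A time interaction, and it moved no other count by over 1.5 times. No libraries within a group agreed within sampling noise, so entering such libraries separately gave no value. With 2 or 3 libraries per group, shared controls, and 2 control libraries held at both times, differences smaller than the spread between libraries were not detectable at this depth.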
